A study of Mus musculus with 18 samples.

Results

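Interferon-stimulated genes (ISG) were examined in the chromatin of unstimulated bone marrow-derived macrophages (BMDM), as a set of 41 genes chosen by name for their known induction by interferon. They were looked up by symbol in an annotation of 55413 genes, of which 21938 are protein-coding, and all 41 were found. Among them, Mx2 and Oas1b are annotated as polymorphic pseudogenes, that is, genes whose reading frame is broken in the reference strain. The members lay on 15 chromosomes in 30 loci, when members with starts within 50 kb of each other were counted as 1 locus. A group of 6 loci held 2 or more members, 17 in all, so neighbouring members were not independent of each other.

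The BMDM were grown for 7 days from bone marrow of male WT, mdx and mdxTLR4-/- mice in medium with L929 supernatant, a source of M-CSF, and received no further stimulus. WT mice were labelled C57BL6, and mdx mice carried the Dmdmdx-4Cv allele, which removes dystrophin from muscle. The mdxTLR4-/- mice combined the mdx background with loss of TLR4, the receptor for lipopolysaccharide and for several molecules released by damaged tissue, and were given the strain label Bl6/Bl10. Since TLR4 was deleted in the whole animal, both the macrophages and the muscle lacked it. Native chromatin was cut with micrococcal nuclease and precipitated for trimethylation (H3K27me3) or acetylation (H3K27ac) of lysine 27 of histone H3. For H3K27me3, 2 ChIP libraries were made per genotype, from mice labelled as 12 and 13 weeks old for WT, 14 and 15 for mdx, and 16 and 17 for mdxTLR4-/-. For H3K27ac, 2 libraries were made from WT mice (19 and 20 weeks), 2 from mdx mice (21 and 22 weeks) and 1 from an mdxTLR4-/- mouse (23 weeks). The labelled ages rise by 1 week from each sample to the next in the order of the labels, inputs included, so it is not known whether they are the real ages of the mice. As labelled, age and genotype cannot be told apart, nor can strain label and loss of TLR4.

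The libraries of each mark and genotype were merged before peaks were called, which left 6 peak lists with a count of ChIP reads for each peak. There is no replicate spread between genotypes in such lists, so no difference between genotypes was tested, and intervals below cover counting error only. The H3K27me3 lists held 28143 peaks and 8331331 reads in WT, 41780 peaks and 10199918 reads in mdx, and 36488 peaks and 7358418 reads in mdxTLR4-/-. The H3K27ac lists were far shallower, with 15665 peaks and 274020 reads in WT, 12076 and 191629 in mdx, and 12493 and 168487 in mdxTLR4-/-. The median H3K27ac peak held 10 reads in WT and in mdx and 8 in mdxTLR4-/-, and the smallest held 5. A member with no H3K27ac peak is therefore one at which no peak was detectable at this depth. The depth of the libraries outside peaks is unknown here.

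H3K27me3 is laid down by Polycomb repressive complex 2 and covers genes that are held silent, often in domains of many kilobases. H3K27ac marks active promoters and enhancers, and the same lysine cannot carry both marks. Interferons of type I and type III signal through JAK kinases to the factor ISGF3, which includes STAT2 and IRF9 and binds the interferon-stimulated response element (ISRE). Interferon gamma acts on genes through the gamma-activated site (GAS). Macrophages are known for a low, constant level of interferon signalling that keeps many ISG expressed before any infection. As the chromatin came from whole cultures, a mark on fewer cells and a weaker mark in each cell cannot be told apart.

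The lists carried the marks of macrophages. Within 5 kb of the start, H3K27ac peaks were found at 10 of 10 macrophage marker genes in WT, 9 in mdx and 10 in mdxTLR4-/-. The exception in mdx was Csf1r, the receptor of M-CSF, where a peak of 165 reads lay 5003 bp from the start, just outside the range counted. No macrophage marker had H3K27me3 in its gene window. The marker lists of neutrophils (7 genes), dendritic cells (5), fibroblasts (4) and muscle (4) had no H3K27ac peak in any genotype. Among 7 lymphocyte genes, Cd4 alone had one, with 9 reads in WT. Mean H3K27me3 coverage in WT was 28.9% for the neutrophil genes, 42.2% for dendritic cells, 59.6% for lymphocytes, 58.9% for fibroblasts and 54.9% for muscle. The start of Tlr4 had H3K27ac in all genotypes (44 reads in WT, 29 reads in mdx and 28 in mdxTLR4-/-) and Dmd had none, but peak lists do not show a deletion or a point mutation and so do not test the genotypes.

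Most ISG starts carried H3K27ac and hardly any carried H3K27me3. An H3K27ac peak lay within 5 kb of the start of 36 of 41 members in WT (87.8%, with a Wilson 95% interval of 74.5 to 94.7%). In mdx it was 35 members (85.4%, 71.6 to 93.1%), and in mdxTLR4-/- 34 (82.9%, 68.7 to 91.5%). Over all protein-coding genes the shares were 32.0%, 27.4% and 29.4%. The start itself lay under an H3K27ac peak for 34, 32 and 28 members, against 24.0%, 20.6% and 20.9% of protein-coding genes. By contrast, the start lay under an H3K27me3 peak for 1 member in WT, Oas1g, and for 0 in mdx and 0 in mdxTLR4-/-, where the protein-coding shares were 23.5%, 23.8% and 22.7%. Another protein-coding gene started within 5 kb of 9 members, for instance Oas1c at 121 bp from Oas1b, so that their peaks could belong to either gene. Of the 32 members with no such neighbour, 28 in WT, 27 in mdx and 28 in mdxTLR4-/- had H3K27ac near the start. The share over protein-coding genes with no such neighbour was not computed.

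**Figure D1:**
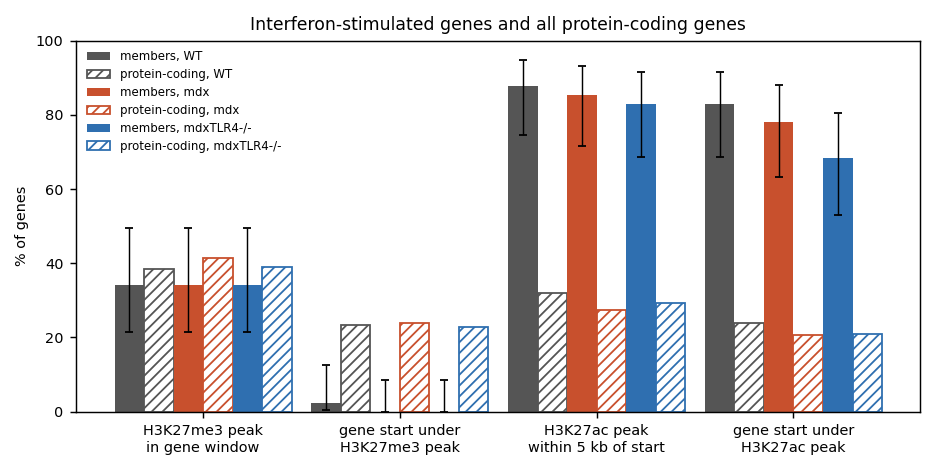
Percent of the 41 interferon-stimulated genes (filled bars, with Wilson 95% intervals that cover counting error only) and of all 21938 protein-coding genes (hatched bars) with each mark, by genotype. The members' H3K27ac shares of 82.9% to 87.8% within 5 kb of the start stand above the hatched bars of 27.4% to 32.0%, and 1, 0 and 0 member starts lay under H3K27me3.

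H3K27ac near the start was present in all 3 genotypes at 31 members, while 21.1% of protein-coding genes had it in all 3. Peaks were absent in every genotype at Gbp9, Ifitm1, Ifi27l2a and Ifi44, 4 members against 61.5% of protein-coding genes. The nearest H3K27ac peak to Ifi44, an interferon-induced gene, was 370041 bp away in WT and mdx and 45841 bp in mdxTLR4-/-. Ifitm1, which encodes a membrane protein that blocks virus entry, had no peak within 10021 bp in WT, whereas its neighbours Ifitm2 (23 reads in WT, 15 reads in mdx and 14 in mdxTLR4-/-) and Ifitm3 (18, 14 and 13 reads) did. Gbp9 shares its start region with Gbp8 and Gbp4, which begin 1 and 47 bp from it and had no H3K27ac either. The promoters of the set were also low in CpG: the observed over expected CpG ratio had a median of 0.280 over the 30 members with a promoter in the reference table, against 0.602 over 16522 protein-coding genes.

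Promoter sequence was taken from RefSeq (GRCm38.p6, the same bases as mm10), as the 250 bases before and 50 after each start, for 30 of the 41 members. The core of the ISRE was searched as GAAA, any 2 bases, GAAA, on both strands, and GAS as TTCNNNGAA, which reads the same on both. The ISRE core was found in 19 of 30 member promoters (63.3%), and in 3.47% of the protein-coding promoters. GAS was found in 10 members (33.3%) and in 7.81% of protein-coding promoters, and 6 members held both, among them Bst2, Gbp5 and Oas1a. The RefSeq start of Gbp5 lies 2956 bp from the annotated start used for the marks, and no ISRE core lay within 500 bases of the latter. With 500 bases on each side of the start, the ISRE core was in 70.0% of these members and 10.8% of protein-coding genes, and GAS in 36.7% and 24.4%. An H3K27ac peak touched the promoter in all 3 genotypes for 15 of the 19 members with the ISRE core and for 7 of the 11 without. Among protein-coding promoters it did so for 22.5% of 573 with the core and 16.8% of 15949 without. Over the genome, WT H3K27ac peaks touched 193 of 573 promoters with the core (33.7%) and 4299 of 15949 without it, and among the members 18 of 19 with it and 9 of 11 without. These matches describe letters and do not show that a factor was bound.

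The sequences below are those of the member whose promoter carried H3K27me3 in WT, Oas1g (chr5:120887564-120887863, minus strand), followed by the members with the ISRE core, H3K27ac over the promoter in every genotype and the most WT reads. These are Ifit3b (chr19:34607707-34608006, plus), Ifit3 (chr19:34583279-34583578, plus), Bst2 (chr8:71537423-71537722, minus) and Gbp2 (chr3:142620413-142620712, plus). Capitals mark each ISRE core, and in Bst2 also a GAS that overlaps it; 2 cores overlap by one GAAA in Oas1g and in Bst2.
Oas1g: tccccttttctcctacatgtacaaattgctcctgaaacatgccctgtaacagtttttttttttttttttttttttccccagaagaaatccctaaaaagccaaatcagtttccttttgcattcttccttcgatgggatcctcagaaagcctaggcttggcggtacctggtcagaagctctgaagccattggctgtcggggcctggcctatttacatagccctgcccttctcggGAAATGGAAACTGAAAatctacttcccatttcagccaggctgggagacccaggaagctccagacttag
Ifit3b: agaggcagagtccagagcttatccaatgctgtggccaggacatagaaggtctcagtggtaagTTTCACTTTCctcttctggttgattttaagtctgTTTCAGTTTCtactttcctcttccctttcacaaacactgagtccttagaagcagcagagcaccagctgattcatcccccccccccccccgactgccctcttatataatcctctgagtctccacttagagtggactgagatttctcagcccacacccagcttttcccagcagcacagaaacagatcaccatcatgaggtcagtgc
Ifit3: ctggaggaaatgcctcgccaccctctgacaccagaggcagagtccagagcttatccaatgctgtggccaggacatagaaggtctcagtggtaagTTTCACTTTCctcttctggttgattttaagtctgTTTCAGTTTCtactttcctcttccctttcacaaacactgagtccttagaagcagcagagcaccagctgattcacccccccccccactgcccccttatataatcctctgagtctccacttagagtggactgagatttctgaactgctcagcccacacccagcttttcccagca
Bst2: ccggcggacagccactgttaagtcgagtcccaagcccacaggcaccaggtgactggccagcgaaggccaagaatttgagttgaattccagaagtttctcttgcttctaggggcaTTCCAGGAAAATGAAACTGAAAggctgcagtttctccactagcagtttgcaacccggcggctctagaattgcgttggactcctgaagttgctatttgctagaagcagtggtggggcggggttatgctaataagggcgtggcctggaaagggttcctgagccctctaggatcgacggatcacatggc
Gbp2: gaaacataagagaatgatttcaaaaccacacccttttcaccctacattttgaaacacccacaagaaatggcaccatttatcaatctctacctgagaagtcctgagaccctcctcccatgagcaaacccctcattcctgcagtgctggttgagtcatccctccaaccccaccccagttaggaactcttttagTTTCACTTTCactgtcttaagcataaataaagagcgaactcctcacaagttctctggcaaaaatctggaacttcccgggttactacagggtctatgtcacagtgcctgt

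In Oas1g the first core began 18 bases before the RefSeq start, and in Gbp2 59 bases before it. The RefSeq and GENCODE starts of Gbp2 lie 61 bases apart. The promoters of Ifit3b and Ifit3 are copies of each other, with a shared run of 169 bases in which both cores lie. Reads of such copies may be placed on either gene, so the values of Ifit3 and Ifit3b are uncertain as to which of them they came from. The same holds for the Oas1 genes, the Gbp genes, Ifi203 and Ifi204 with their neighbours, and the interferon alpha genes below.

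The IFIT genes encode proteins that bind the ends of foreign RNA, and they form a cluster on chromosome 19. Ifit3b had 104 reads near the start in WT (86 of them in the peak over the start), 57 in mdx and 44 in mdxTLR4-/-. Ifit3 had 67, 40 and 35 reads in the same order. WT was highest at both, and in every genotype the start lay under a peak. Ifit2 had 48, 26 and 21 reads, and its start lay under a small peak of 6 reads in WT, whereas in mdx and mdxTLR4-/- the peak began 1707 and 1907 bp into the gene. Ifit1 had 16 reads in WT, 16 in mdx and no peak in mdxTLR4-/-, where the nearest peak was 32271 bp away. Only Ifit3 of the 4 had H3K27me3 in its window, a peak of 2000 bp and 42 reads at chr19:34586201-34588200 in the gene body in mdx.

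Isg15 encodes the ubiquitin-like protein that is joined to targets after interferon, and Usp18 the protease that removes it. Isg15 had 22 H3K27ac reads in WT, 23 reads in mdx and 6 in mdxTLR4-/-, and another gene, AW011738, starts 2486 bp from it. Usp18 had 9, 17 and 7 reads, with the highest value in mdx. Isg20, an exonuclease, had 36, 17 and 19 reads. Rsad2, which encodes viperin, had 24 reads in WT, no peak within 12549 bp of the start in mdx, and 7 reads in mdxTLR4-/- in a peak 3149 bp from the start. The Mx genes, which encode GTPases that trap viral particles, were among the best marked: Mx2 had 82, 70 and 57 reads and Mx1 51, 40 and 19. The start of Mx2, a pseudogene in the reference strain, lay under H3K27ac in every genotype.

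Among the transcription factors, Irf9, the DNA-binding part of ISGF3, had 75 reads in WT, 43 reads in mdx and 35 in mdxTLR4-/-, and in the last the nearest peak was 430 bp from the start. Irf1, a factor induced early by interferon gamma, had 62, 55 and 35 reads, with the start under a peak in WT and mdx and the nearest peak 4814 bp away in mdxTLR4-/-. Irf7, which drives interferon alpha genes, had 35, 25 and 23, and Stat2 had 28, 15 and 13. All 4 had peaks in all genotypes, and in unscaled reads all 4 were highest in WT. Scaled to the reads in peaks, the ratio of mdx to WT was 1.27 at Irf1, 1.02 at Irf7, 0.820 at Irf9 and 0.766 at Stat2. Most Irf1 reads lay in a separate upstream peak whose near edge alone reached into the 5 kb. That peak held 41 of the 62 WT reads, 44 of the 55 mdx reads and all 35 of mdxTLR4-/-. The Irf1 peak over the start held 21 reads for WT and 11 for mdx, a fall in unscaled reads. The ratio of 1.27 therefore does not describe the Irf1 start, for which no scaled ratio was computed.

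The sensors of foreign nucleic acid included the member with the most H3K27ac reads, Ifi204, a DNA sensor, with 138 reads in WT, 72 reads in mdx and 78 in mdxTLR4-/-. Its relative Ifi203 had 44, 35 and 26 reads. Zbp1, which binds Z-form nucleic acid, had 25, 25 and 24 reads, and Dhx58, an RNA helicase, had 19, 20 and 23. Ddx58, which encodes the RNA sensor RIG-I, had 6 reads in WT, 13 in mdx and no peak in mdxTLR4-/-. Ifih1, which encodes MDA5, had 15, 9 and 14 reads, and Eif2ak2, the kinase PKR that halts translation, 20, 8 and 8. Bst2, which tethers virions to the cell surface, had 51, 38 and 32 reads, and Ifi35 had 22, 9 and 10.

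Guanylate-binding proteins (GBP) attack the vacuoles of intracellular pathogens. Gbp2 had 40 reads in WT, 18 reads in mdx and 30 in mdxTLR4-/-, Gbp3 had 39, 32 and 24, and Gbp5 had 34, 18 and 21. Gbp6 (13, 17 and 5) and Gbp7 (10, 18 and 6) were instead highest in mdx. The OAS proteins make the messenger 2-5A when they meet double-stranded RNA. Oasl2 had 56, 30 and 32 reads and Oasl1 37, 28 and 12, while the members of the Oas1 to Oas3 cluster had 22 reads or fewer, and are described with H3K27me3 below.

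**Figure D2:**
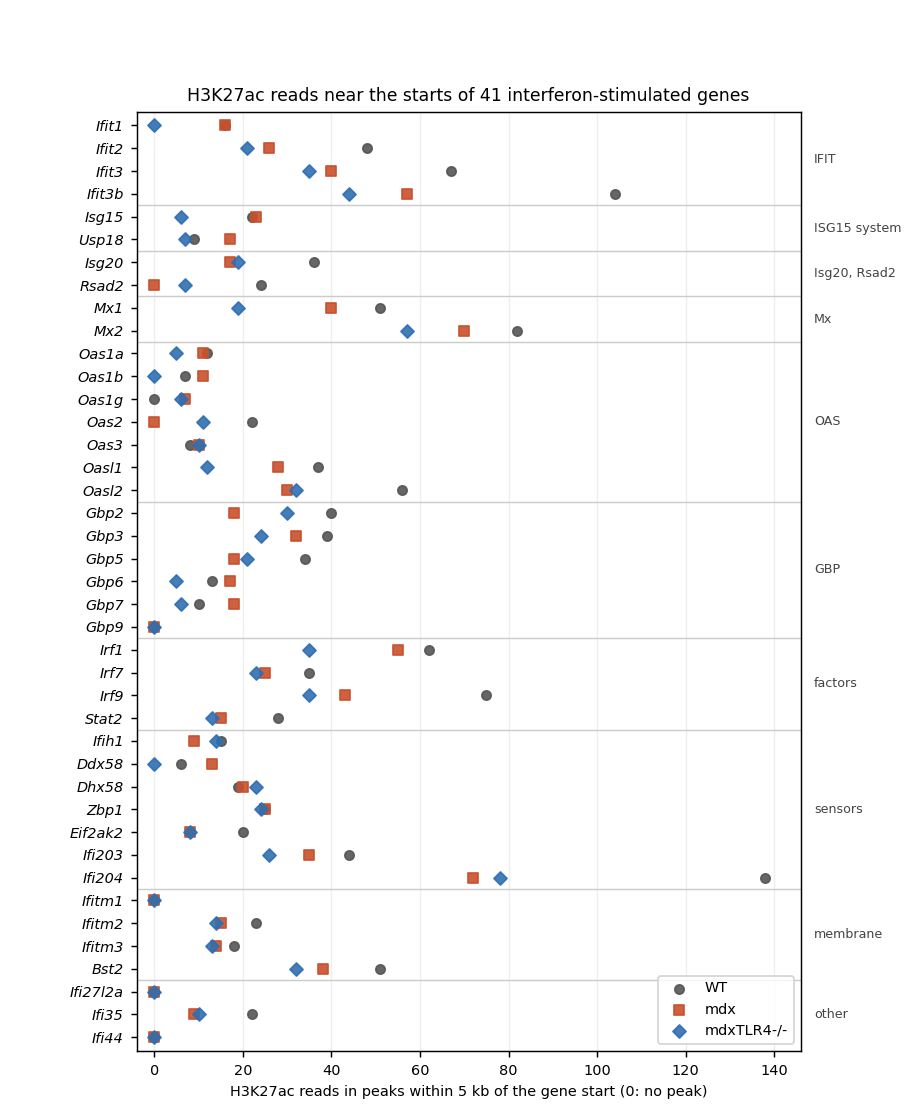
H3K27ac reads in peaks within 5 kb of the start of each of the 41 members (x axis, reads not scaled for depth), with 1 point per genotype and members grouped by role. WT points lie to the right at most members, with 138 reads at Ifi204 and 104 at Ifit3b, and 4 members are at 0 in all genotypes.

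Summed over the members, H3K27ac reads near ISG starts were fewer in mdx and fewest in mdxTLR4-/-, as were the reads in the whole lists. Members with a peak in both genotypes had a median ratio of mdx to WT reads of 0.767 (34 members, 24 of them, or 70.6%, with fewer reads in mdx), and all protein-coding genes had 0.778 and 70.8%. After scaling to the reads in peaks, this median turned to 1.10 for the members and 1.11 for protein-coding genes. For mdxTLR4-/- against mdx the median was 0.862 and 0.980 after scaling, with 0.875 and 0.995 over protein-coding genes. Reads were fewer at 22 of 32 members (68.8%) and at 60.6% of protein-coding genes. For mdxTLR4-/- against WT it was 0.565 (31 of 33 members with fewer reads), where protein-coding genes had 0.688 and 79.6% with fewer reads. Scaling by a common factor gave 0.919 for the members and 1.12 for protein-coding genes. The list of other pathway genes described below had 0.60 (21 of 23 genes, or 91.3%, with fewer reads) and 0.976 after scaling. The comparison rests on 1 mdxTLR4-/- library, and whether the gap exceeds the spread between mice was not tested.

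The counts at single members were small. The exact interval of the ratio of reads, which covers counting error only, lay below 1 at 11 of 34 members for mdx against WT (32.4%, where protein-coding genes with peaks in both had 17.7%). For mdxTLR4-/- against mdx it did so at 6 of 32 (18.8%, background 8.77%), and for mdxTLR4-/- against WT at 17 of 33 (51.5%, background 24.9%). It lay above 1 at 0 members in each, with backgrounds of 1.07%, 2.52% and 0.602%. The width of the interval depends on the reads at a gene, and the shares were not matched for it. After scaling to the reads in peaks, 1 member stayed below 1 for mdx against WT (2.94%, background 3.15%), Ifi204, whose unscaled ratio was 0.522 (0.387 to 0.699). For mdxTLR4-/- against WT it was Ifit3b (3.03%, background 3.19%), with an unscaled ratio of 0.423 (0.290 to 0.607). For mdxTLR4-/- against mdx 5 members did so, Isg15, Mx1, Oasl1, Gbp6 and Gbp7 (15.6%, background 4.7%). The scaled interval lay above 1 at Usp18, Gbp7 and Ddx58 for mdx against WT (8.82%, background 8.22%). It did so at Gbp2 for mdxTLR4-/- against mdx (3.12%, background 5.36%) and at Dhx58 for mdxTLR4-/- against WT (3.03%, background 8.01%). Macrophage marker genes other than Csf1r held 456 reads in WT, 419 reads in mdx and 304 in mdxTLR4-/-. With Csf1r, whose mdx peak fell outside the range, the list held 618, 419 and 407 reads, and the members' peaks held 1318, 902 and 725. Scaled to the reads in all peaks, the members' peaks took 4810, 4707 and 4303 reads per 1000000.

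Peaks seen in some genotypes and not in others were few. They held fewer reads than the best marked members, though several held more than the list medians of 10 reads in WT and mdx. From WT to mdx, 2 members lost the peak near the start, Rsad2 and Oas2, with 8.08% of protein-coding genes losing theirs, and 1 gained one, Oas1g, with 3.54% gaining. From mdx to mdxTLR4-/-, 3 members lost it, Ifit1, Oas1b and Ddx58 (background 4.82%), and 2 gained it, Rsad2 and Oas2 (6.82%). From WT to mdxTLR4-/-, the losses were the same 3 members (7.0% of protein-coding genes) and the gain was Oas1g (4.45%). None of these peaks held more than 24 reads.

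H3K27me3 touched the windows of some ISG without covering them. Each gene was given a window that took in its body, the 5 kb before it and the 1 kb after it. A peak reached into this window at 14 of 41 members in each genotype, against 38.4% of protein-coding genes in WT, 41.3% in mdx and 39.0% in mdxTLR4-/-. In any genotype it did so at 18 members, against 44.5%. At least 50% of the window was covered at 1 member in WT, Oas1g, and at 0 in mdx and 0 in mdxTLR4-/-, where the background was 16.6%, 16.3% and 14.9%. Mean coverage of the members was 7.70% in WT, 5.80% in mdx and 6.30% in mdxTLR4-/-, against 17.6%, 17.4% and 16.0% over protein-coding genes. With a stricter minimum density the mean was again lowest in mdx, but WT and mdxTLR4-/- changed places. When peaks had to reach 1.5 times the 1st percentile of density in their list, the members' means were 3.49%, 3.34% and 4.72%. With equal numbers of the densest peaks taken from each list they were 7.70%, 3.44% and 5.14%. Protein-coding genes then had 17.6%, 15.6% and 14.9%. WT has the shortest list and was left whole. That setting could lower only mdx and mdxTLR4-/-, so it does not bear on their order with WT. Both marks were found in or near the same member at 11 genes in WT, 11 in mdx and 10 in mdxTLR4-/-, with backgrounds of 5.89%, 5.17% and 5.18%. Their peaks shared bases at 3 members in WT (1400 bp at Zbp1, 800 bp at Gbp7 and 400 bp at Irf7), and at 0 in mdx and 0 in mdxTLR4-/-. At Zbp1 and Gbp7 the H3K27me3 peaks concerned were near the floor, with 76 reads each at 16.5 reads per kb. Only 2.92% of WT peaks were as thin or thinner. At Irf7 in mdxTLR4-/- the peaks of the 2 marks met without overlap. No share over protein-coding genes is available here for shared bases, and the difference between genotypes was not tested.

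**Figure D3:**
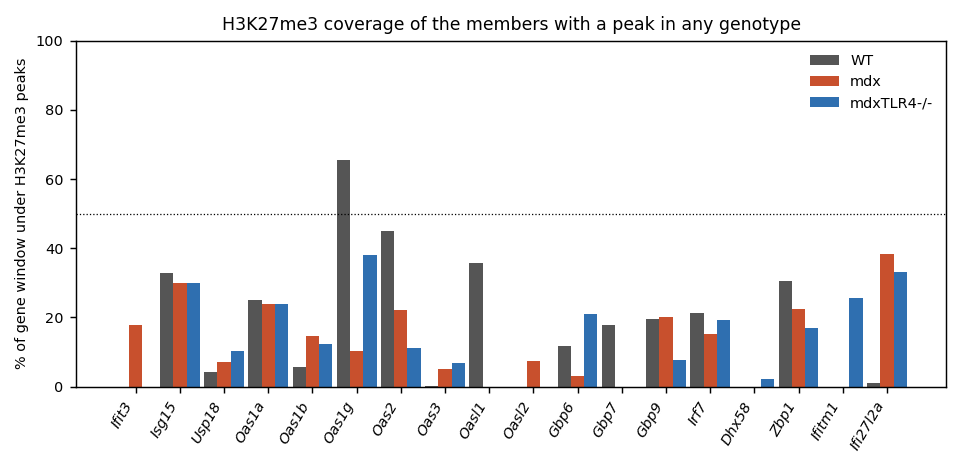
Percent of the gene window under H3K27me3 peaks (y axis) by genotype for the 18 members with a peak in any genotype; the dotted line marks 50%. Oas1g in WT, at 65.6%, is the one bar above the line, and the other 23 members had no H3K27me3 in their windows.

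The longer peaks at these members were also the denser ones in the median. Those over 10 kb long had a median density of 43.9 reads per kb in WT, 47.7 in mdx and 39.4 in mdxTLR4-/-. Those of up to 10 kb had 19.0, 25.0 and 21.6 reads per kb, below the medians of the whole lists, which were 24.5, 28.3 and 23.7. Some short peaks were dense all the same, such as those by Isg15, 2400 to 3200 bp long with 35.0 to 47.7 reads per kb. Of 60 pairs of a peak and a member, 29 lay upstream, 27 had their nearest edge in the gene body, 3 lay downstream and 1 crossed the start.

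Outside the Oas cluster, several domains and shorter peaks ended a few kilobases from ISG starts in each genotype. Upstream of Irf7, a domain of 28000 bp in WT covered Cdhr5, Sct and Drd4 with 1818 reads (64.9 per kb), and it ended 2920 bp from the Irf7 start in WT, 3520 bp in mdx and 3120 bp in mdxTLR4-/-. It gave Irf7 a coverage of 21.3%, 15.1% and 19.2%. At Isg15, peaks of 114, 124 and 84 reads over AW011738 ended 2583, 2783 and 2783 bp from the start, for a coverage of 32.7%, 30.0% and 30.0%. Ifi27l2a, which encodes a small protein of mitochondrial and nuclear membranes, lies next to a domain over Ifi27l2b whose edge was 4921 bp from the start in WT, 2121 bp in mdx and 2521 bp in mdxTLR4-/-. This shift of the edge took the coverage of Ifi27l2a from 1.06% to 38.3% and 33.0%, while the domain held 281, 396 and 322 reads. At Usp18 small upstream peaks covered 4.18%, 7.09% and 10.3%, and at Dhx58 the edge of a peak over Zfp385c covered 2.06% in mdxTLR4-/- alone.

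The Oas cluster on chromosome 5 held both states side by side. Members of the cluster are Oas2, Oas3, Oas1b, Oas1g and Oas1a, and between or beside them lie Oas1c, Oas1d, Oas1e, Oas1f and Oas1h, which are relatives of Oas1a outside the set and were compared with it after the domains had been seen. Their windows were covered by 51.3% to 100% in WT, 55.7% to 100% in mdx and 51.3% to 100% in mdxTLR4-/-. The members Oas1a, Oas1b and Oas1g were covered by 5.51% to 65.6%, 10.3% to 23.9% and 12.4% to 38.1%. H3K27ac near the start was found at 1, 1 and 0 of the 5 non-members, and at 2, 3 and 2 of the 3 members. The single non-member was Oas1c, which starts 121 bp from Oas1b, so the 7 reads in WT and 11 in mdx were counted at both genes.

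At Oas1a, a domain over Oas1d, 25600 bp long in WT (1124 reads in WT, 1302 reads in mdx and 1037 in mdxTLR4-/-) ended 680 bp before the start in WT and 880 bp before it in the others. The start itself carried H3K27ac, with 12, 11 and 5 reads. Coverage of Oas1a was 25.0%, 23.9% and 23.9%. Oas1b and Oas3 lie on either side of a domain over Oas1e and Oas1c that held 1001 reads in WT. Coverage at Oas1b was 5.51% in WT, from the edge of that domain, and 14.6% in mdx and 12.4% in mdxTLR4-/-, from separate short peaks of 83 and 69 reads. At Oas3 the domain edge gave 0.200% in WT and 6.74% in mdxTLR4-/-. The 5.12% in mdx came mostly from a separate peak of 40 reads at the far end of the gene, with 1503 bp in the window against 61 bp of the domain. H3K27ac reads at Oas3 were 8, 10 and 10.

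Oas1g differed most of the members in H3K27me3 coverage between WT and mdx and between mdx and mdxTLR4-/-. Between WT and mdxTLR4-/-, Oasl1, Oas2 and Ifi27l2a differed more. In WT a domain over Oas1h ran into its body (675 reads, 37.9 per kb) and a second, thin peak lay over its start at chr5:120886601-120890800 (79 reads, 18.8 per kb), for a coverage of 65.6%. In mdx a peak of 42 reads remained in the body and coverage was 10.3%. In mdxTLR4-/- the domain ran into the body again (554 reads) without a peak over the start, for 38.1%. H3K27ac went the other way: no peak within 19188 bp of the start in WT, and a peak at chr5:120886601-120887600, 13 bp from the start, with 7 reads in mdx and 6 in mdxTLR4-/-. These acetylation counts are close to the smallest in the lists, and with that stricter minimum density for H3K27me3 peaks, 0 members reached 50% in WT.

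Oas2 lies beside a domain over Rasal1 and Dtx1, which held 4969 reads in WT (55.0 per kb) and entered the far end of the gene. Thin peaks of 66 and 107 reads lay further in, and coverage was 44.9% in WT. In mdx, peaks of 109 and 40 reads gave 22.2%, and in mdxTLR4-/- the domain edge alone gave 11.2%. The mdx value rests on these thin peaks: with the same number of peaks taken from each list, or with the stricter minimum density, mdxTLR4-/- was 11.2 points higher than mdx instead of lower. H3K27ac at the Oas2 start was 22 reads in WT, 11 in mdxTLR4-/- and absent in mdx, where the nearest peak was 25948 bp away.

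**Figure D4:**
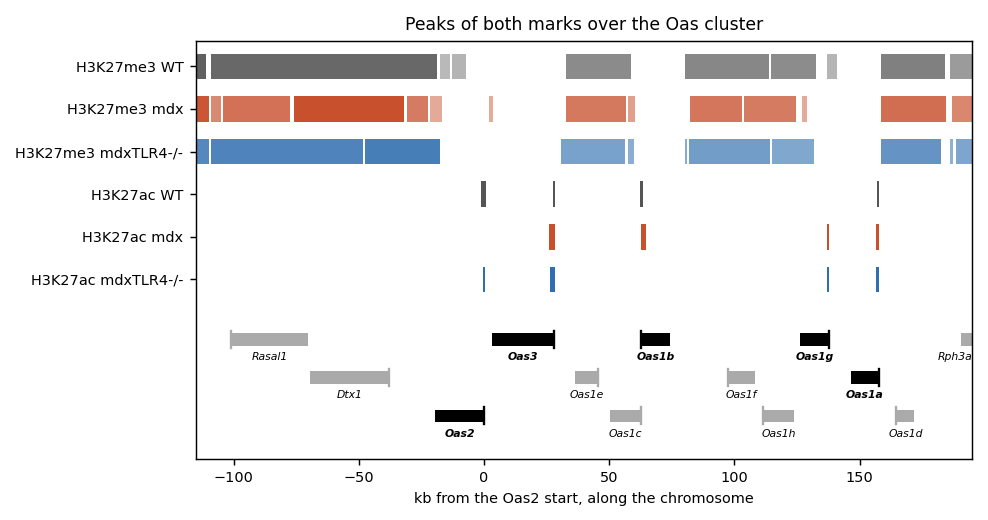
Peaks of H3K27me3 and H3K27ac in each genotype over the Oas cluster, by distance from the Oas2 start in kb; H3K27me3 blocks are darker where reads per kb are higher, and ticks on the genes mark starts (members in black). The H3K27me3 domains lie over Rasal1, Dtx1 and the Oas1 genes outside the set, and H3K27ac peaks lie near 4 of the 5 member starts in each genotype, with none at Oas1g in WT, Oas2 in mdx or Oas1b in mdxTLR4-/-.

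At the other members named here, H3K27me3 came from peaks of up to 7000 bp, which differed between genotypes. Oasl1 had 2 peaks in WT (57 and 84 reads), for 35.6%, and none in mdx or mdxTLR4-/-. Its neighbour Oasl2 had 1 in mdx (36 reads, 7.51%). Gbp7 had 1 in WT (76 reads), 259 bp past its start, for 17.8%. Gbp6 was covered by 11.7% in WT, 3.10% in mdx and 21.0% in mdxTLR4-/-. Gbp9 had 19.4%, 20.2% and 7.66%, in peaks of 44 to 87 reads, most of them also within the overlapping gene models of Gbp8 or Gbp4. Zbp1 had 30.5%, 22.5% and 17.0%, with a peak of 76 reads starting 123 bp from its start in WT and a peak of 210 reads past its end. The latter, at 30.0 reads per kb, and a WT peak of 62 reads at Gbp9, at 31.0, were denser than the WT list median. Ifitm1 had a peak of 38 reads in mdxTLR4-/- alone (25.6%), and Ifit3 the one in mdx given above (17.9%).

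By the rule of 10 percentage points of coverage, 4 members were lower in mdx than in WT (Oas1g, Oas2, Oasl1 and Gbp7, background 5.51%) and 2 were higher (Ifit3 and Ifi27l2a, background 4.9%). From mdx to mdxTLR4-/-, 3 were lower (Ifit3, Oas2 and Gbp9, background 7.73%) and 3 higher (Oas1g, Gbp6 and Ifitm1, background 2.52%). Of these 6, only Oas1g passed 10 points in the same direction both with equal numbers of peaks taken from each list and with the stricter minimum density. Ifitm1 and Ifit3 then differed by 0 points in both, Gbp6 by 3.80 and -3.10 points and Gbp9 by -8.84 and -4.42 points, and Oas2 turned as given above. The higher value of Ifit3 in mdx than in WT was 0 points in both as well. From WT to mdxTLR4-/-, 6 were lower (Oas1g, Oas2, Oasl1, Gbp7, Gbp9 and Zbp1, background 8.41%) and 2 higher (Ifitm1 and Ifi27l2a, background 2.61%). Of the 41 members, 23 had no H3K27me3 in any genotype and so could not be lower. With the stricter minimum density the members lower than WT numbered 1 in mdx and 0 in mdxTLR4-/-.

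The rest of the pathway was looked up as a list of 51 genes. Most interferon genes themselves had H3K27me3: 16 of 21 ligand genes had it in every genotype, with a mean coverage over the 21 of 59.5% in WT, 70.6% in mdx and 59.2% in mdxTLR4-/-. These were the interferon alpha genes, Ifnab, Ifnl2 and Ifnl3. At least 50% of the window was covered for 13 ligand genes in WT, 16 in mdx and 15 in mdxTLR4-/-. Ifna1, Ifna2 and Ifna13 were at 100% throughout, whereas Ifna9 had 39.4%, 100% and 27.2%, Ifna7 42.6%, 81.7% and 54.4%, and Ifna12 44.1%, 96.7% and 96.7%. Ifnb1, the interferon beta gene, had neither mark in any genotype. Ifnz lies among related genes and had 197 H3K27ac reads within 5 kb in WT, 65 in mdx and 13 in mdxTLR4-/-, in 5, 4 and 2 peaks some of which cover the starts of those genes.

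Receptor and sensing genes of the pathway mostly carried H3K27ac. Some sensing genes, some kinases and factors, and Ptpn11 among the inhibitors had a peak in some genotypes only. Of 6 receptor genes, 5 had H3K27ac near the start in each genotype, such as Ifnar2 (46, 32 and 29 reads) and Ifngr2 (58, 60 and 47). Ifnlr1, the receptor of type III interferon, was instead under H3K27me3 (98.2%, 90.0% and 95.0%). Among the kinases and factors, Jak2 (36 reads in WT and 13 in mdxTLR4-/-) and Irf3 (16 and 11) had no peak in mdx. Irf5 had 148, 124 and 57 reads. Of 9 sensing and adaptor genes, 7 had a peak in WT, 7 in mdx and 7 in mdxTLR4-/-, but Mavs had it in WT alone (11 reads) and Cgas in mdx (7 reads) and mdxTLR4-/- (21 reads) alone. Of 8 inhibitors and genes of nucleic acid clearance, 4 in WT, 4 in mdx and 5 in mdxTLR4-/- had a peak. Socs1, which blocks JAK kinases, had both marks, with a coverage of 59.1%, 46.2% and 18.3% and 23, 27 and 19 H3K27ac reads. Socs3 was covered by 37.3%, 0% and 18.1% and had no H3K27ac, and Ptpn11 had a peak of 7 reads in mdxTLR4-/- alone.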

How the data were processed

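The deposited files were 6 peak lists, 1 per mark and genotype. The authors mapped reads to mm10 with Bowtie2 (2.3.4 in the submitters' processing notes, which also name cutadapt 1.15, CASAVA 1.8 and SICER 2.0), merged replicates and called peaks with SICER2 (window 200 bp, gap 600 bp, FDR below 0.01). The authors deposited 1 read count with every peak, taken from the ChIP libraries and neither scaled for depth nor reduced by input. Input libraries were not analysed here. The number of per-sample columns left unused was 0.

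Genes and starts were those of GENCODE vM21, except that the promoters of 250 bases before and 50 after used RefSeq starts. H3K27me3 coverage is the percent of the window under peaks, and H3K27ac reads are those of peaks that touch the 5 kb on each side of the start. Shares have Wilson intervals and ratios exact conditional intervals, both at 95%. No test was made, since each genotype has 1 list. The members and lists were chosen with earlier results of these data known. The use of the start under a peak, of neighbours, of the Oas1 relatives, of shared starts and of the macrophage list without Csf1r was chosen after the peaks had been seen. Named in full were members with any H3K27me3, members with H3K27ac in some genotypes only, the 5 with the most WT H3K27ac reads, and pathway genes with at least 20% coverage or with H3K27ac in some genotypes only, of which 1 is not reported here. Coverage and overlaps were tested on simulated data. The tools were scipy 1.17.1 and numpy 2.4.6 in Python 3.11.15, with tables in pandas 2.3.3 and plots in matplotlib 3.10.9.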

Additional observations from a re-analysis of the deposited data

How the results depend on the processing

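No paired analysis was possible because the authors merged the replicates before peaks were called and deposited 1 list for each mark and genotype. Leaving out a replicate was not run for the same reason. Of 143 recomputed counts, means, ratios and shares, 110 stayed within 1.5 times the count or within the interval of the value, among them every count of members with H3K27ac near the start and both motif shares of the members, though the protein-coding shares with 500 bases on each side of the start rose to 10.8% for the ISRE core and 24.4% for GAS. The smallest H3K27ac peaks held 5 reads, and the cause of the changes below was not tested.

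Counting at least 20% of the window as covered by H3K27me3 gave 7 members in WT, 6 in mdx and 6 in mdxTLR4-/-. Counting any peak gave 14 in each, where the protein-coding shares were 38.4%, 41.3% and 39.0%. With a minimum density of 1.5 times the 1st percentile the WT count of covered members was 0. The protein-coding shares at 20% and with the minimum density are not available, so those counts stand without a background. With 2 kb on each side of the start in place of the window, mean coverage was 4.85% in WT, 1.82% in mdx and 2.47% in mdxTLR4-/-. Members lower in mdx than in WT numbered 1 with the minimum density and 7 at 5 points, and those higher numbered 1 with equal numbers of peaks, 1 with the minimum density, 1 around the start and 4 at 5 points. Members lower in mdxTLR4-/- than in mdx numbered 0 with equal numbers of peaks, 0 with the minimum density, 1 around the start and 6 at 5 points. Members lower in mdxTLR4-/- than in WT numbered 0 with the minimum density and 3 around the start, and those higher numbered 1 with equal numbers of peaks and 6 at 5 points. Equal numbers left the WT list whole and cut the mdx list most, so counts in that setting lean toward lower coverage in mdx. The protein-coding shares of such differences are not available for these settings. Single differences also turned. At Oas2, mdx minus WT was 1.32 points around the start, and mdxTLR4-/- minus mdx was 11.2 points with equal numbers of peaks and with the minimum density. With that minimum, mdxTLR4-/- minus WT was 3.92 points at Oas2 and 11.6 points at Zbp1, and mdxTLR4-/- minus mdx was -3.10 points at Gbp6 and 0 at Ifitm1.

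For H3K27ac peaks of at least 10 reads, 5 members lost and 4 gained a peak from WT to mdx, 8 lost one from mdx to mdxTLR4-/- and 7 from WT to mdxTLR4-/-. At that minimum, 32, 31 and 26 members in WT, mdx and mdxTLR4-/- had a peak, against 24.4%, 19.8% and 17.0% of protein-coding genes. Within 1 kb of the start, 6 lost one from WT to mdxTLR4-/- and 1 gained one from mdx to mdxTLR4-/-. With the 5 kb upstream alone, 4 lost one from WT to mdx and 0 gained one from WT to mdxTLR4-/-. The shares of protein-coding genes that lost or gained a peak are not available for these settings, so the counts stand without a background. Scaling to the reads in peaks turned the median ratio of mdx to WT to 1.10 and moved that of mdxTLR4-/- to WT to 0.919, and it turned the ratio at Mx2 to 1.22 for mdx to WT and 1.13 for mdxTLR4-/- to WT.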
